A study of Homo sapiens with 191 samples.

Results

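The clustered protocadherin genes are the protein-coding genes of human chromosome 5 whose symbols place them in the alpha, beta or gamma protocadherin cluster. By symbol, 53 of 20090 protein-coding genes on chromosomes 1 to 22 and X qualified, 15 in the alpha, 16 in the beta and 22 in the gamma cluster. Their accessibility was read from a list of 50000 regions, each about 500 bp wide, called on pooled single-cell ATAC-seq libraries, in which a transposase inserts sequencing adapters into open chromatin. The libraries, 96 from plate 1 and 95 from plate 2, each came from a GM12878 cell and form 1 group. GM12878 is a lymphoblastoid line, that is, B cells of a single donor transformed by Epstein-Barr virus and kept in culture, so it stands for neither neurons nor primary B cells. The cells were fixed, made permeable and transposed together before single cells were sorted into wells, and no antibody was applied. The pooled list has no value per cell and no replicates, so no test over samples could be made, no error can be given and cells cannot be compared with each other. Counts and medians of the members stand beside the same quantities over all genes or regions.

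Clustered protocadherins are cadherin-like proteins of the cell surface that neurons use to tell their own branches from those of other cells. Each alpha and gamma gene is a variable exon with a promoter of its own, and its transcript is spliced to constant exons that all genes of the cluster share, whereas a beta gene holds its whole protein in its own exon. A neuron transcribes a few of these promoters, a choice that is known to involve CTCF and cohesin, distant enhancers and DNA methylation, while the C-type genes at the ends of the alpha and gamma clusters are used more widely.

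The promoters of the members carry letters in common that set the clusters apart, and these are shown because the promoters with and without an accessible region share them. The 60 bases around the 8 letters most shared within each cluster are given on the plus strand, the strand of all members, in hg19 coordinates, with those 8 letters in capitals. In the gamma cluster the first 3 promoters had an accessible region and the last 2 had none.
PCDHGC3 (chr5:140855435-140855494): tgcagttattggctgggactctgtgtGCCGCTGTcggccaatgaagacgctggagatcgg
PCDHGA7 (chr5:140762204-140762263): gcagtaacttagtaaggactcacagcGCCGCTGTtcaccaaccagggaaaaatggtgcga
PCDHGA10 (chr5:140792486-140792545): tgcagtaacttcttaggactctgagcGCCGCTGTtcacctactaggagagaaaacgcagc
PCDHGA8 (chr5:140772123-140772182): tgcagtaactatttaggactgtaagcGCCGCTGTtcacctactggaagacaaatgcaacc
PCDHGA9 (chr5:140782269-140782328): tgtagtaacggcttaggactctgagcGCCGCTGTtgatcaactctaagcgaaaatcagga
In the alpha cluster PCDHA1 had an accessible region and PCDHA5 and PCDHA10 had none at their promoters.
PCDHA1 (chr5:140165657-140165716): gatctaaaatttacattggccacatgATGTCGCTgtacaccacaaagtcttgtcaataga
PCDHA5 (chr5:140201113-140201172): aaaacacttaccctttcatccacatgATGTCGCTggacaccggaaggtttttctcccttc
PCDHA10 (chr5:140235412-140235471): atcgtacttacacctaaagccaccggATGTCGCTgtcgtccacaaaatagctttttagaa
None of these beta promoters had an accessible region.
PCDHB2 (chr5:140474115-140474174): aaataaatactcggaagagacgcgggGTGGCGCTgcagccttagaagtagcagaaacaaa
PCDHB4 (chr5:140501291-140501350): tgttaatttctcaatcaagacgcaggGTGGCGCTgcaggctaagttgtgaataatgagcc
PCDHB15 (chr5:140624868-140624927): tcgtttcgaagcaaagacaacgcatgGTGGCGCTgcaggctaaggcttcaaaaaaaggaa
Each set of letters was picked from the members' own promoters, between 250 bases before and 50 bases after the transcription start site (TSS), so its frequency among them is a description only. ATGTCGCT was present in 10 of 15 alpha promoters, GTGGCGCT in 14 of 16 beta promoters and GCCGCTGT in 12 of 22 gamma promoters, on either strand. Among the promoters of all 20090 genes the shares were 0.289%, 1.61% and 2.06%. No member of another cluster held the letters of a given cluster. All matches lay on the gene's own strand, and their first base stood at a median position of −55.5 from the TSS in the alpha cluster and of −65.5 in the beta and in the gamma cluster. The letters CGCT, which also form the core of the known conserved promoter element of these clusters, occurred on the gene strand in 51 of 53 members (96.2%) and in 66.2% of all genes.

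Few clustered protocadherin promoters were in the list, and nearly all of those that were belong to the gamma cluster. A gene was counted as having a promoter region when the centre of a region lay within 1 kb of the TSS of its main transcript, which for these genes is the start of the variable exon. This held for 11 of 53 members (20.8%), and for 52.4% of all protein-coding genes. The count was 1 of 15 in the alpha cluster, 0 of 16 in the beta cluster and 10 of 22 in the gamma cluster (45.5%). The strongest region of each of these 11 genes lay close to the start, the farthest at 360 bp (PCDHGA12). Among members without a promoter region, the nearest region stood 2092 bp from the TSS, at PCDHA10. The list holds no score under 16.03, so a member without a region may still hold a weaker one.

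**Figure D1:**
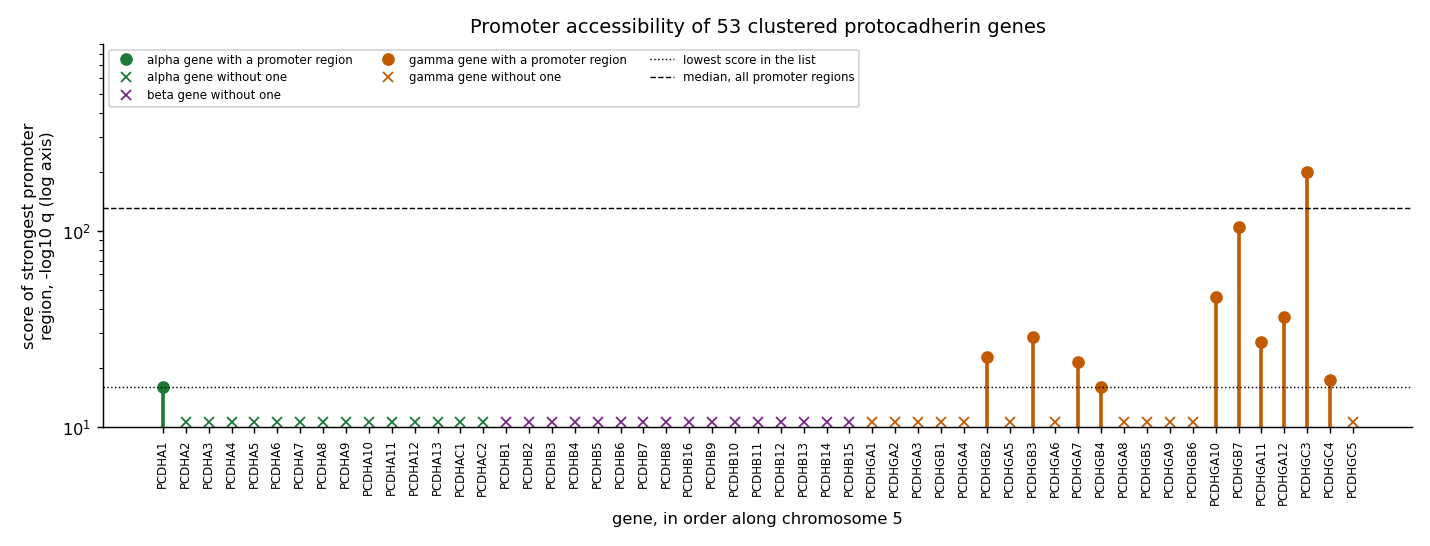
Score of the strongest region within 1 kb of the TSS for each of the 53 members, in chromosomal order (vertical axis −log10 q, log scale). Circles are the 11 genes with a region, crosses at the base the 42 genes without one. The dotted line is the lowest score in the list, 16.03, and the dashed line the median of all genes' promoter regions, 131.6. PCDHGC3 is the 1 member above the dashed line, and no beta gene has a circle.

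The score of a region is taken here, from the study's methods, as the −log10 of the q-value that the peak caller gave on the pooled cells, since the list itself has no header that names it. On that reading a higher score means a clearer excess of insertions. PCDHGC3, a C-type gene of the gamma cluster that is known to be expressed widely outside neurons, had the strongest member promoter, with a score of 199.2 at 30 bp before the TSS (rank 5131 of 50000). A second region of score 42.55 lay 623 bp after the same start. PCDHGB7, a B-type gamma gene, followed with a score of 104.4 at 7 bp after its TSS (rank 9340). These 2 promoters stood above every other member. The regions are shown up to the base before the TSS, with the shared gamma letters of PCDHGC3 in capitals and none present in this stretch of PCDHGB7.
PCDHGC3 region (chr5:140855253-140855532): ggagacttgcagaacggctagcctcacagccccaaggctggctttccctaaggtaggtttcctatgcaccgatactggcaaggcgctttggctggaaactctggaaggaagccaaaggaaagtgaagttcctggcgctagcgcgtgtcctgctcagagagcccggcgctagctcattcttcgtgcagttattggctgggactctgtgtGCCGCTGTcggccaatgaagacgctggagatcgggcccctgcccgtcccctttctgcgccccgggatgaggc
PCDHGB7 region (chr5:140797001-140797243): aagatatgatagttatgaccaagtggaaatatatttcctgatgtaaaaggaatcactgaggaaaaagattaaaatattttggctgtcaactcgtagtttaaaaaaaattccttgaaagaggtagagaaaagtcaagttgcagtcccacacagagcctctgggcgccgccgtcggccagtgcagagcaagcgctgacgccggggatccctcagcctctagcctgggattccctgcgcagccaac

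The other 9 promoters scored far lower. PCDHGA10, an A-type gamma gene, scored 45.78 with its region centred 120 bp after the TSS. PCDHGA12, the last A-type gene of the cluster, scored 36.23 at 360 bp after its TSS, and PCDHGB3 scored 28.63 with a centre just before its TSS. PCDHGA11 scored 27.15 at 298 bp after the start. These 4 promoters lie on either side of 31.62, the median score of the whole list, with PCDHGA10 and PCDHGA12 above it. PCDHGB2 scored 22.83, PCDHGA7 21.43 and PCDHGC4, the middle C-type gamma gene, 17.34, with centres 84 bp after, 43 bp after and 81 bp before their starts. PCDHA1, the first gene of the alpha cluster, and PCDHGB4 each scored 16.03, the lowest score in the list, which 3102 regions share. The median over the 11 promoters was 27.15, against 131.6 over the 10532 genes with a promoter region, and 10 of the 11 were below that median. In the stronger part of the list, at or above its median score, 4 members kept a promoter region (PCDHGA10, PCDHGA12, PCDHGB7 and PCDHGC3), against 45.1% of all genes.

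Along the gamma cluster, promoters with and without a region were interspersed, in part as runs of neighbouring genes. The first 5 genes in the order of transcription, PCDHGA1, PCDHGA2, PCDHGA3, PCDHGB1 and PCDHGA4, had none. PCDHGB2 and PCDHGB3 had a region while PCDHGA5 and PCDHGA6 beside them had none. PCDHGA7 and PCDHGB4 had a region, and the next 4, PCDHGA8, PCDHGB5, PCDHGA9 and PCDHGB6, had none. From PCDHGA10 to PCDHGC4 every gene had one, a run of 6 genes, and PCDHGC5, the last, had none. By type, 4 of 12 A-type, 4 of 7 B-type and 2 of 3 C-type gamma genes had a promoter region. Among the first 11 gamma genes 4 had a region, and among the last 11 there were 6.

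Members without a region differed in how far away the nearest one was. In the gamma cluster PCDHGC5 had the nearest, 3033 bp after its TSS with a score of 34.68, and the 12 gamma genes without a region lay a median of 5071.5 bp from one. In the alpha cluster it was PCDHA10, whose region at 2092 bp lay inside its variable exon with a score of 16.03. In the beta cluster PCDHB1, the first gene, had the nearest region at 10160 bp, before its start and outside the cluster. The median distance over the 16 beta genes was 107853 bp. The 2 C-type genes of the alpha cluster, PCDHAC1 and PCDHAC2, were 68310 and 74738 bp from a region.

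Over the whole locus, the 3 clusters differed in density as well as at promoters. The alpha cluster held 2 regions in 226.2 kb (8.841 per Mb), the beta cluster 0 in 198.0 kb and the gamma cluster 20 in 182.5 kb (109.6 per Mb), against 20.44 per Mb on chromosome 5 and 17.63 per Mb over all chromosomes used. Of windows as long as the beta cluster laid end to end along all chromosomes, 21.5% held no region, and of windows as long as the alpha cluster 50.2% held 2 or fewer. Of windows as long as the gamma cluster, 0.926% held 20 or more. Among such windows, taken without regard to the genes they hold, counts as low as those of the beta and alpha clusters are thus common. Few windows are as dense as the gamma cluster. Windows as rich in genes as the clusters were not compared. With 50 kb added on each side the locus held 34 regions in 826.8 kb (41.12 per Mb).

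**Figure D2:**
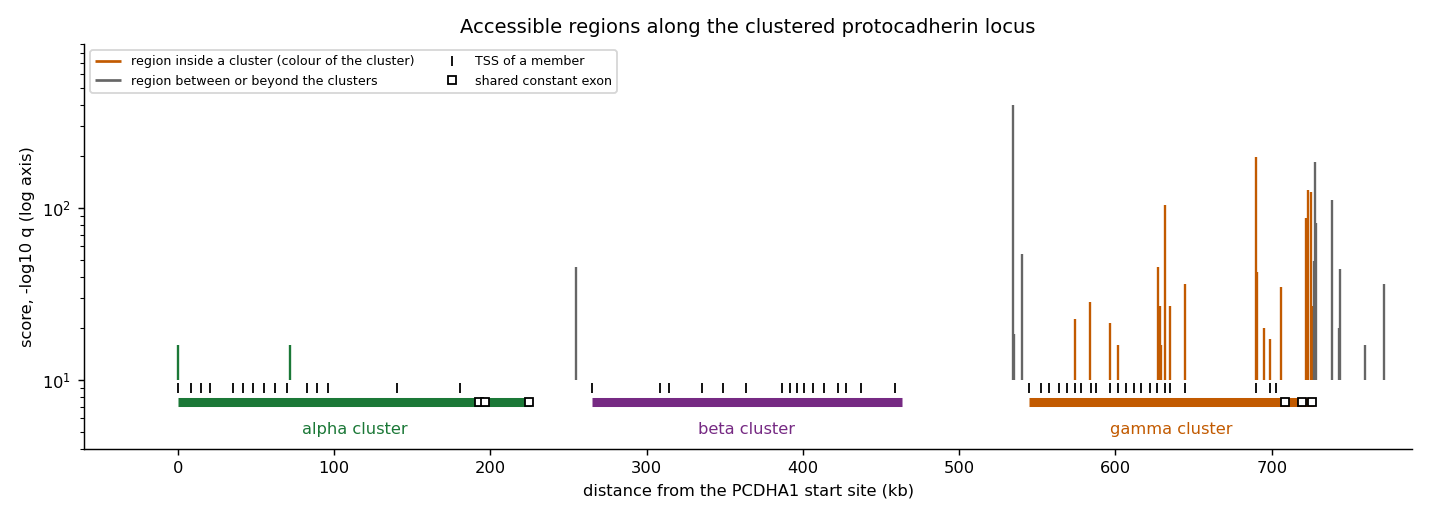
Regions along the locus, by distance from the PCDHA1 TSS in kb (horizontal) and score (−log10 q, log axis), with the span of each cluster, the TSS of each member and the shared constant exons drawn below. The alpha cluster has 2 regions, the beta cluster 0 and the gamma cluster 20, and the stretch over the beta cluster without a region is 279.1 kb long.

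The beta cluster lay within a stretch of 279.1 kb without a region (chr5:140421050-140700107). Between the centres of its neighbours the gap was 279.6 kb, against a median gap of 16.4 kb in the list, and 3.86% of all gaps were at least as long. Region names carry a running number of the called peak, and these numbers rise along every chromosome. Between the nearest listed regions on each side of the beta cluster, 280 kb apart, 46 numbers were assigned and 0 of them are in the list. The same count was 2 of 43 (4.65%) for the alpha cluster and 16 of 61 (26.2%) for the gamma cluster, against 8.94% on chromosome 5 and 8.53% over all 513945 numbers. Each interval ends at the nearest listed regions outside its cluster. Its flanks thus hold no listed number by construction, which can only lower the share. The list gives neither the scores nor the positions of the missing numbers, so why they are missing and how many were at promoters is not known.

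**Figure D3:**
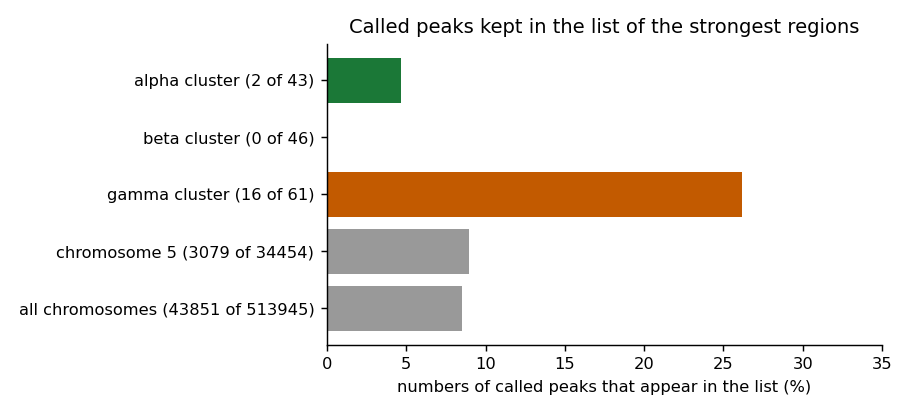
Share of the running numbers of called peaks that appear in the list (%), for the interval around each cluster and for chromosome 5 and all chromosomes, with the counts beside each name. The gamma interval kept 26.2%, the alpha interval 4.65% and the beta interval 0 of 46. Each interval runs between the nearest listed regions outside the cluster, so the beta value follows from the choice of interval. That choice can only lower the alpha and gamma values.

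Within the gamma cluster, accessible regions lay at promoters and also at the shared constant exons. Of its 20 regions, 15 were in the part with the variable exons (91.3 per Mb) and 5 in the 18.17 kb from the first to the last constant exon (275.2 per Mb). The variable exon of PCDHGA10 held 2 regions beyond the promoter window, with scores of 27.15 and 16.03, so that PCDHGA10 had 3 regions over its exon. A region of score 20.05 lay at −4158 bp from the PCDHGC4 TSS, and one of 34.68 between PCDHGC5 and the first constant exon. The intron between the second and the third constant exon held 3 regions of scores 87.61, 28.63 and 127.6, all summits of the same called peak. Constant exon 3 (chr5:140890514-140892542), which carries the end of the shared protein sequence, held 2 regions of scores 123.7 and 27.15. Of these 5 regions, those of scores 127.6 and 123.7 exceeded every member promoter except that of PCDHGC3. No region lay in or between the alpha constant exons.

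Beyond the end of the gamma cluster the accessible stretch went on. Regions of scores 49.06, 186.6 and 82.12 lay 0.175, 1.14 and 1.66 kb after its last base, between genes. DIAPH1, which encodes a formin that builds actin filaments, had regions of scores 112.1 and 36.23 at annotated starts of its transcripts, 12.0 and 45.0 kb after the cluster, and 3 more inside the gene with scores of 20.05, 44.16 and 16.03. Between the beta and gamma clusters, TAF7, which encodes a subunit of the general transcription factor TFIID, had promoter regions of scores 399.5 and 18.68. The first of these was the strongest region of the locus. A region of score 54.06 lay at the start of the long non-coding RNA ENSG00000272070, 4215 bp before PCDHGA1.

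A single region stood between the alpha and beta clusters, with a score of 45.78 (chr5:140420549-140421049), 28.9 kb after the end of the alpha cluster and at the start of the long non-coding RNA ENSG00000288892. Downstream of the alpha constant exons lies the known alpha enhancer HS5-1, which binds CTCF and the neuron-restrictive repressor REST. Whether this region is that enhancer was not tested. The second part of the region is shown because it holds a match to each factor's consensus, in capitals, first the REST match with 1 mismatch and then the exact CTCF match, both on the minus strand.
region after the alpha cluster (chr5:140420750-140421049): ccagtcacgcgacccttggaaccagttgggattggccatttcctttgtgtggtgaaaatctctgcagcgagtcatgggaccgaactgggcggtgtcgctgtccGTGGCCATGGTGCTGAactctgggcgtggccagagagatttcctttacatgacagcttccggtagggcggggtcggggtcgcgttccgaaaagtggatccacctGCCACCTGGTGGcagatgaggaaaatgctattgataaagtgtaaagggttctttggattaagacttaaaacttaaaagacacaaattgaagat
Among the 34 regions of the locus 4 held the exact CTCF core consensus on either strand (11.8%), against 2.30% of all 50000 regions. The other 3 were the regions of scores 123.7 and 27.15 in gamma constant exon 3 and that of 112.1 at DIAPH1. The match of the first of these was on the plus strand and those of the others on the minus strand. The REST consensus with at most 1 mismatch was found in 1 of the 34 regions (2.94%), against 0.558% of all regions. At the member promoters, from 250 bases before to 50 after the TSS, the CTCF consensus was found in 0 of 53, against 0.473% of all promoters. A match is a description of letters, and its absence says only that these letters are not in the window.

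The shared promoter letters did not separate the gamma promoters with a region from those without. Of the 12 gamma promoters that hold GCCGCTGT, 6 had a region (PCDHGA7, PCDHGB4, PCDHGA10, PCDHGA12, PCDHGC3 and PCDHGC4), and so did 4 of the other 10. PCDHA1 was the 1 alpha gene with a region among the 10 that hold ATGTCGCT, and 0 of the 14 beta genes with GTGGCGCT had one.

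The members' promoters were poorer in CpG dinucleotides than most. Within 500 bp of the TSS the median CpG count was 36 over the 11 members with a region and 32.5 over the 42 without, against 66 over all genes. By cluster it was 38 in alpha, 22.5 in beta and 36.5 in gamma. In the gamma cluster the 10 promoters with a region had 28 to 51 CpGs and the 12 without had 14 to 53, so the 2 sets overlapped. PCDHAC1, with 78 CpGs, and PCDHAC2, with 63, had the highest counts of the 53 and no region. Among the 32 members with 30 to 66 CpGs 9 had a promoter region, against 62.1% of all genes in that class. Among the 20 members with 29 CpGs or fewer 2 had one, against 10.3% of all such genes. The class of 30 to 66 CpGs is wide, and all its members except PCDHAC2 had 53 CpGs or fewer. Members were not compared with genes of equal CpG count.

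**Figure D4:**
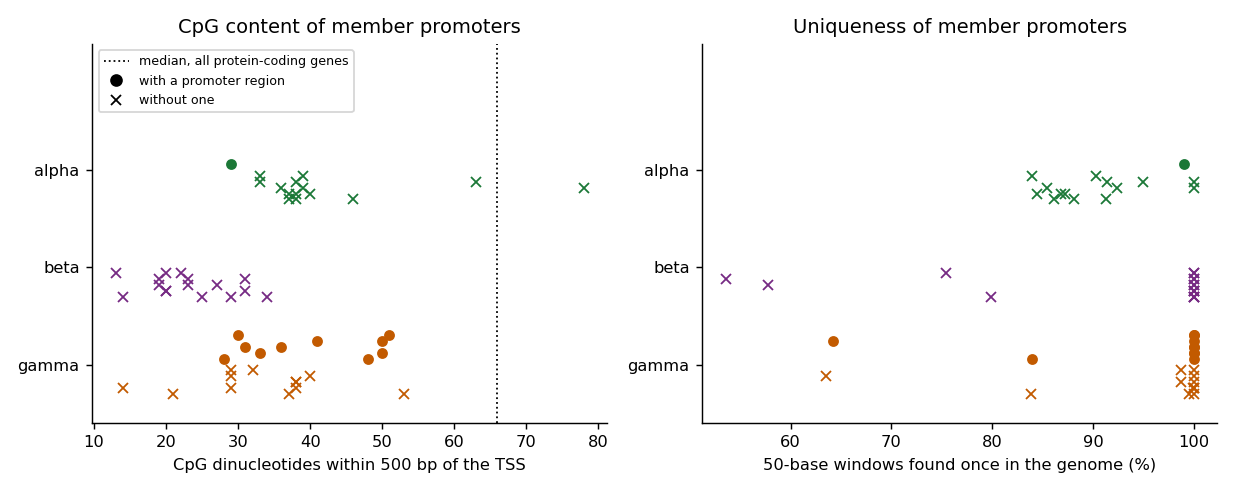
CpG dinucleotides within 500 bp of the TSS (left) and share of 50-base windows in the same stretch that occur once in the genome (right), for each member by cluster, with circles for members with a promoter region and crosses for those without. The dotted line is the median over all genes, 66. Circles and crosses of the gamma cluster overlap in both panels.

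Near-identical copies matter here because reads that map to several places were removed before peaks were called. Of the 50-base windows within 500 bp of the TSS, the larger part occurred once in the genome at every member, 28 of the 53 members were unique throughout and 15 were below 90%. The beta promoters were unique throughout in 12 of 16 cases, and the lowest were PCDHB13 at 53.6% and PCDHB8 at 57.8%. The alpha promoters had a median of 90.2%. The 2 least unique gamma promoters were PCDHGB4, at 64.2% and with a region, and PCDHGB5, at 63.5% and without one. Of the other protein-coding genes of chromosome 5, 694 of 830 were unique throughout and 44 were below 90%. With windows of 75 bases 33 of the 53 members were unique throughout and 9 were below 90%, and the alpha median was 96.4%. Of the other 830 genes of chromosome 5, 748 were then unique throughout and 28 were below 90%. How many reads were lost at each promoter was not tested.

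Genes outside the clusters that act with them were mostly accessible at their promoters. Of 24 regulators that bind, loop, methylate or silence the clusters 20 had a promoter region (83.3%, against 52.4% of all genes). The median score of these 20 was 117.9, below the 131.6 over all genes with a promoter region. The strongest were RAD21 at 1355, SMC1A at 619.4, STAG1 at 574.3 and NIPBL at 416.0. These encode subunits of cohesin and, for NIPBL, its loader. DNMT1 and DNMT3B, which methylate DNA, TET1, which oxidises the methyl mark, and WIZ, a zinc finger protein, had none at any annotated TSS. Of 22 protein partners 19 had a promoter region (86.4%, against the same 52.4%), with a median score of 123.7, also below 131.6. PDCD10, which binds the shared gamma protein end, had the highest score of the list, 4438, followed by the kinase FYN at 726.3 and by ABI1 at 695.5 and BRK1 at 366.6, which belong to the WAVE complex that drives actin branching. NLGN1 and NLGN2, adhesion proteins of the synapse, and the receptor kinase RET had none at the main TSS but had one at another annotated TSS. Of 12 non-clustered protocadherins, single genes with promoters elsewhere, 4 had a region (33.3%, against 52.4% of all genes), PCDH9 at 547.0, PCDH18 at 113.99 and PCDH7 and PCDH19 at 17.34 each. PCDH1, PCDH10, PCDH11X and PCDH12 were among those without, though PCDH1 and PCDH12 had a region at another annotated TSS. With any annotated TSS counted, 6 of 12 had one, against 57.2% of all genes. The count at the main TSS moved with the window, to 7 of 12 within 2.5 kb, against 55.2% of all genes. The members of this list were thus not below all genes at 2.5 kb.

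**Figure D5:**
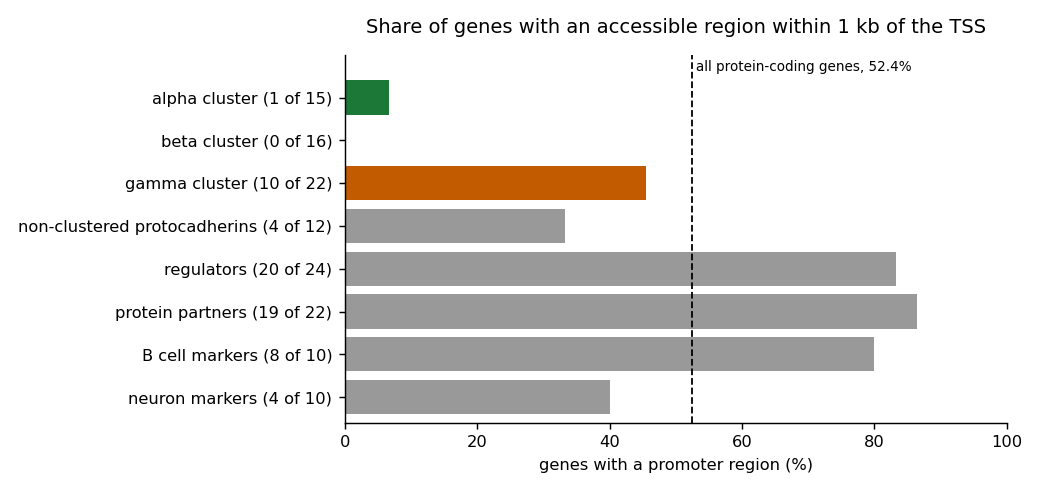
Share of genes with a region within 1 kb of the main TSS (%), for each cluster and for the lists named beside the bars, with counts in parentheses. The dashed line is the share over all protein-coding genes, 52.4%. The alpha and beta clusters are far below the line, and the gamma cluster, at 45.5%, is closer to it. The non-clustered protocadherins, at 33.3%, and the neuron markers, at 40.0%, are also below it. The regulators, partners and B cell markers are above it.

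The labelled cell type was set against its markers. Of 10 B cell markers 8 had a promoter region (80.0%, against 52.4% of all genes). The strongest were POU2AF1 at 413.7, EBF1 at 231.4, MS4A1 at 106.3 and BLK at 89.45, and CD22 was among those without. The median score of the 8 was 85.79, below the 131.6 over all genes with a promoter region. Of 10 neuron markers 4 had a promoter region (40.0%, against the same 52.4%), MAP2 at 209.8, SNAP25 at 66.07, SYT1 at 39.36 and SYN1 at 17.34. The median score of these 4 was 52.72. DCX, ELAVL4, GAP43 and NEUROD1 were among those without, though ELAVL4 had a region at another annotated TSS.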

How the data were processed

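The authors aligned adapter-trimmed pairs to hg19 (Bowtie2 2.1.0 per the submitters' processing notes), discarded duplicates (Picard 1.79) as well as poor and mitochondrial alignments, ran MACS2 (its version is not stated) on the cells combined, and retained the summits with the smallest q-values. The deposited scores were taken as the authors' −log10 q-values from the methods, since the file has no header. Whether libraries that failed the study's filter were pooled is not stated, and the file gives no reads, so the depth behind each region is unknown.

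Members and lists were chosen with earlier results of these data known. Genes and TSS came from GENCODE 44 on GRCh37, which is hg19, 1-based, and sequences from the same genome. All members with a promoter region, all regions of the locus, the nearest member without one per cluster, and in each other list the 4 strongest and up to 4 without one were named, except for an item not reported here. The shared letters, chosen after seeing the sequences, are those found in most promoters of a cluster and in under 10% of all promoters. Scripts ran on Python 3.11.15 with numpy 2.4.6, pandas 2.3.3 and numba 0.67.0. On simulated data 200 of 200 planted promoter regions and 200 of 200 planted CTCF motifs were found. Alternatives changed the window, the TSS, the flank, the part of the list, the motif window and the length of unique windows.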

Additional observations from a re-analysis of the deposited data

How the results depend on the processing

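Of 49 alternatives 36 stayed within 1.5 times the reported count, or within 1 SD for the unique windows. Some of the 36 could not move. The beta cluster held 0 regions, so alternatives that only removed or merged regions left its count as it was. In the stronger part of the list by score, 4 members and 2 non-clustered protocadherins had a promoter region, against 45.1% of all genes. In that part the alpha cluster held 0 regions, the gamma cluster 9 and the whole locus 18. Without the lowest score the alpha cluster held 0 regions and 9 members had a promoter region, against 51.9% of all genes. With 2.5 kb windows 7 of 12 non-clustered protocadherins had a region, against 55.2% of all genes. With 100 kb added on each side the alpha, beta and gamma intervals held 10, 4 and 33 regions. The CTCF consensus occurred in 1 member promoter within 500 bp of the TSS, in 4 within 1 kb and in 1 with a mismatch allowed, against 0.916%, 1.44% and 5.52% of all promoters. With a 5 kb window 16 members had a region, against 58.5% of all genes. The beta cluster had no member with a region with any annotated TSS. It also had none under the 2.5 kb and 5 kb windows, which follows from the nearest region lying 10160 bp from a beta TSS. No paired analysis was possible because the libraries form 1 group and are pooled in 1 list. Weak promoters near the lowest score depend on where the list ends. The effect of depth was not tested.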
